A study of Mus musculus with 79 samples.

Results

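The first day of the change from mouse embryonic stem cells (ESCs) to epiblast-like cells (EpiLCs) was described from 10 of the 79 RNA libraries of the series, all from unedited cells. They were chosen as the libraries labelled EpiLC D1 or ESC D0 in the 2 wild-type lines, TET WT and DNMT WT. TET WT is the parent of a line lacking Tet1, Tet2 and Tet3, and DNMT WT is the parent of a line lacking Dnmt1, Dnmt3a and Dnmt3b. There were 3 TET WT libraries at EpiLC D1, 3 TET WT libraries at ESC D0, 2 DNMT WT libraries at EpiLC D1 and 2 DNMT WT libraries at ESC D0. ESC D0 cells were grown in 2i/Lif, and EpiLC D1 cells had spent 1 day in differentiation toward EpiLCs. The series also followed both knockouts, later EpiLC days and embryoid bodies, and the 12 knockout libraries at these same conditions are used at the end. Each genotype is 1 cell line, so a line and its handling cannot be told apart, and the labels do not say whether replicates came from separate cultures. The p-values then measure the spread between these libraries, which may be technical. Over both lines together they also take in how far the lines differ in their change.

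ESCs in 2i/LIF are held in the naive state of pluripotency, which resembles the epiblast of the blastocyst. The medium blocks MEK, and so ERK signalling, and inhibits GSK3, which stabilises β-catenin and raises Wnt target genes, while LIF acts through the receptor chains Lifr and gp130 and the transcription factor Stat3. On leaving these conditions, cells pass through a formative state in which naive transcription factors go down, Otx2 and Pou3f1 come up, and the de novo DNA methyltransferases are induced, while the core factors Oct4 (Pou5f1) and Sox2 are kept.

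The 10 libraries held 10.1 to 12.7 M reads, so 1 read on a transcript of 2 kb is worth at most 0.0497 RPKM (reads per kilobase of transcript, scaled to library depth). Replicates correlated at 0.989 to 0.994 on the log2 scale across genes, and libraries of the same line at EpiLC D1 and ESC D0 at 0.902 to 0.916. The share of reads on mitochondrially encoded genes was 0.189% to 0.225% in TET WT EpiLC D1 libraries, against 0.367% to 0.398% in TET WT ESC D0 libraries. In DNMT WT it was 0.825% to 1.19% at EpiLC D1, against 0.706% to 0.869% at ESC D0. This share moves with the condition in TET WT and with the line, and its part in the results was not tested. These are bulk samples, so fewer cells of a type and less RNA per cell cannot be told apart.

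Within 1 day 973 genes changed in both lines by at least 1 log2 unit, 429 of them higher and 544 lower at EpiLC D1 than at ESC D0. The genes that rose included Dusp6, Spry4, Utf1, Tcf15, Dnmt3a and Dnmt3l, and those that fell included Sp5, Tfcp2l1, Klf4, Dppa3 and Socs3. Of 12142 genes tested, 1583 were called in the fit over both lines (13.0%), 723 higher (5.95%) and 860 lower (7.08%), at an adjusted p under 0.05 in limma and a log2 difference of at least 1. A gene counted as agreeing between lines when it was called and each line's own difference had the same sign and was at least 1 in size, which held for 8.01% of genes, 3.53% in the higher direction and 4.48% in the lower. Changes are given as differences of log2(RPKM + 0.5), EpiLC D1 minus ESC D0, ± the standard error of the fit, with limma p-values corrected over the 12142 genes after Benjamini and Hochberg. This scale understates the change of low genes. The standard error over both lines holds the spread between replicates and any disagreement of the change between the lines. For Dusp6 it was 0.27, against 0.08 within TET WT and 0.09 within DNMT WT.

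Of the 1583 called genes, 606 moved the same way in both lines with 1 line under the size of 1, and 4 had opposite signs. The median size of the difference among the 973 agreeing genes was 1.70, and 8 genes rose and 7 fell by at least 4. Over all genes tested the median difference was 0.01. In 972 of the 973 the EpiLC D1 and ESC D0 libraries did not overlap in either line. The same was true of 43.9% of all genes tested, so separation of the libraries is not particular to these genes. No read was found in any of the 5 ESC D0 libraries for 5 of the genes that rose, nor in any of the 5 EpiLC D1 libraries for 6 of the genes that fell.

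**Figure D1:**
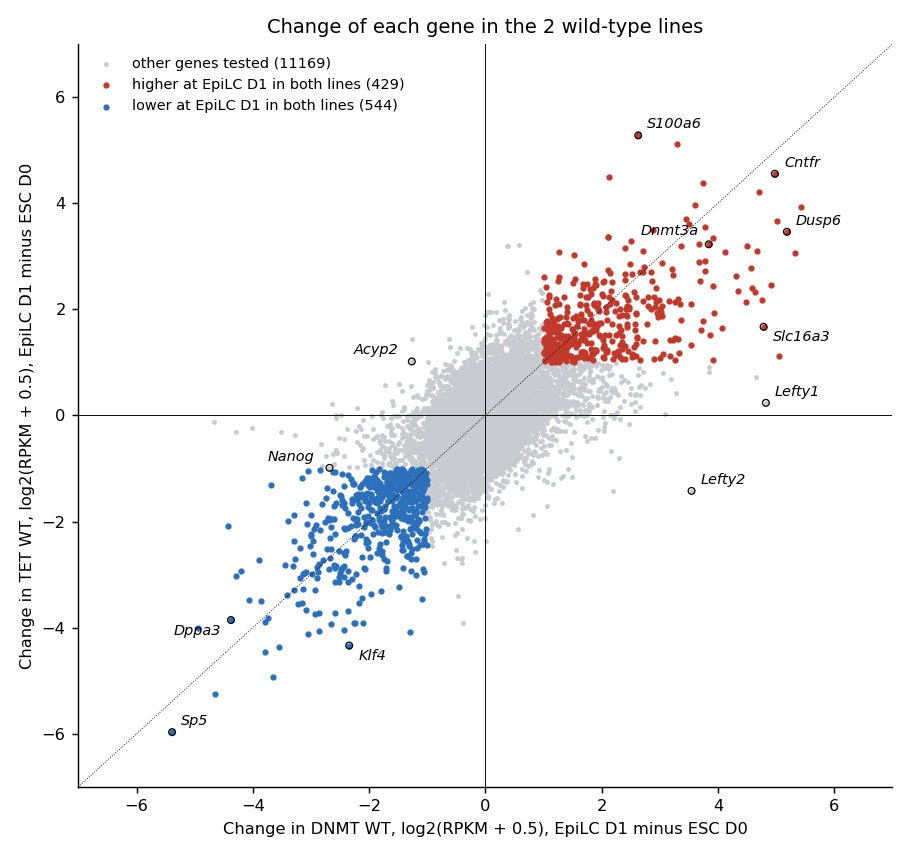
Difference between EpiLC D1 and ESC D0 of each gene tested, on the log2(RPKM + 0.5) scale, in TET WT (vertical axis) and DNMT WT (horizontal axis). The 429 genes higher in both lines (red) and the 544 lower in both (blue) lie beyond 1 on both axes, and Lefty1 and Lefty2 lie far from the dotted line of equal change.

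Of 12 transcription factors of the naive network tested, 7 fell in both lines (Tfcp2l1, Klf4, Prdm14, Tbx3, Klf2, Nr5a2 and Esrrb), none rose in both, and the list's median difference was -1.65. Tfcp2l1, a factor that upholds naive self-renewal downstream of LIF, had 12.5, 12.3 and 11.8 RPKM in TET WT EpiLC D1 libraries, against 150, 152 and 143 RPKM in TET WT ESC D0 libraries. In DNMT WT it had 18.8 and 18 RPKM at EpiLC D1, against 180 and 170 RPKM at ESC D0. The libraries of the conditions were far apart in both lines, and the difference was -3.42 ± 0.07 (adjusted p = 5.32e-10). Klf4, a Krüppel-like factor used in reprogramming, had 7.06, 7.44 and 6.85 RPKM in TET WT EpiLC D1 libraries, against 154, 153 and 154 RPKM in TET WT ESC D0 libraries. Its DNMT WT levels were 15.3 and 14.5 RPKM at EpiLC D1, against 76.0 and 78.9 RPKM at ESC D0. Klf4 fell in both lines (-3.54 ± 0.31, adjusted p = 5.65e-06), by 4.34 on the log2 scale in TET WT and by 2.34 in DNMT WT.

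Prdm14, a PR-domain factor that represses de novo methyltransferase genes in naive cells, fell by 2.74 on the log2 scale, with 4.25, 3.66 and 3.98 RPKM in TET WT EpiLC D1 libraries against 23.3, 21.4 and 23.1 RPKM in TET WT ESC D0 libraries. Its DNMT WT libraries had 2.28 and 2.04 RPKM at EpiLC D1, against 26.5 and 24.8 RPKM at ESC D0. The orphan nuclear receptor Esrrb fell less (-1.56 ± 0.09, adjusted p = 2.26e-07) and stood at 32.2 to 37.9 RPKM in the 5 EpiLC D1 libraries, against 83.0 to 125 RPKM in the 5 ESC D0 libraries. Tbx3 (-2.02), Klf2 (-1.91) and Nr5a2 (-1.63) also fell in both lines.

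Nanog, a homeodomain factor of the naive network, was called over both lines but did not meet the rule in TET WT. It had 223, 242 and 240 RPKM in TET WT EpiLC D1 libraries, against 474, 461 and 466 RPKM in TET WT ESC D0 libraries. DNMT WT libraries had 75.3 and 65.5 RPKM at EpiLC D1, against 436 and 471 RPKM at ESC D0. The ESC D0 levels of the lines were close and the EpiLC D1 levels were not. The difference was -0.99 in TET WT and -2.68 in DNMT WT, and the changes differed between the lines (TET WT minus DNMT WT 1.69, adjusted p = 7.25e-07).

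Not all naive genes were lower in both lines. Zfp42 (Rex1), a common reporter of naive cells, did not pass the test over both lines (-0.14 ± 0.19, adjusted p = 0.536). It had 264 to 272 RPKM in TET WT EpiLC D1 libraries, against 216 to 223 RPKM in TET WT ESC D0 libraries. In DNMT WT it had 145 and 216 RPKM at EpiLC D1, against 303 and 310 RPKM at ESC D0. The difference was 0.29 in TET WT and -0.79 in DNMT WT, and the changes differed between the lines (TET WT minus DNMT WT 1.07, adjusted p = 0.000433). Nr0b1 (0.97) and Gbx2 (0.92) were under the size of 1, and Klf5 was at -0.85. Of 12 other naive markers, 5 fell in both lines (Dppa3, Tcl1, Jam2, Tdh and Fbxo15), none rose, and the median was -0.99. Dppa3 (Stella), which protects maternal methylation in the zygote, had 0.311, 0.501 and 0.312 RPKM in TET WT EpiLC D1 libraries, against 12.5, 10.4 and 13.7 RPKM in TET WT ESC D0 libraries. Its DNMT WT levels were 1.1 and 1.2 RPKM at EpiLC D1, against 29.9 and 37.6 RPKM at ESC D0, and it fell in both lines (-4.06 ± 0.13, adjusted p = 6.90e-09). Tdh, the threonine dehydrogenase that mouse ESCs depend on, fell by 1.79 with nearly equal differences in TET WT (-1.79) and DNMT WT (-1.80).

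**Figure D2:**
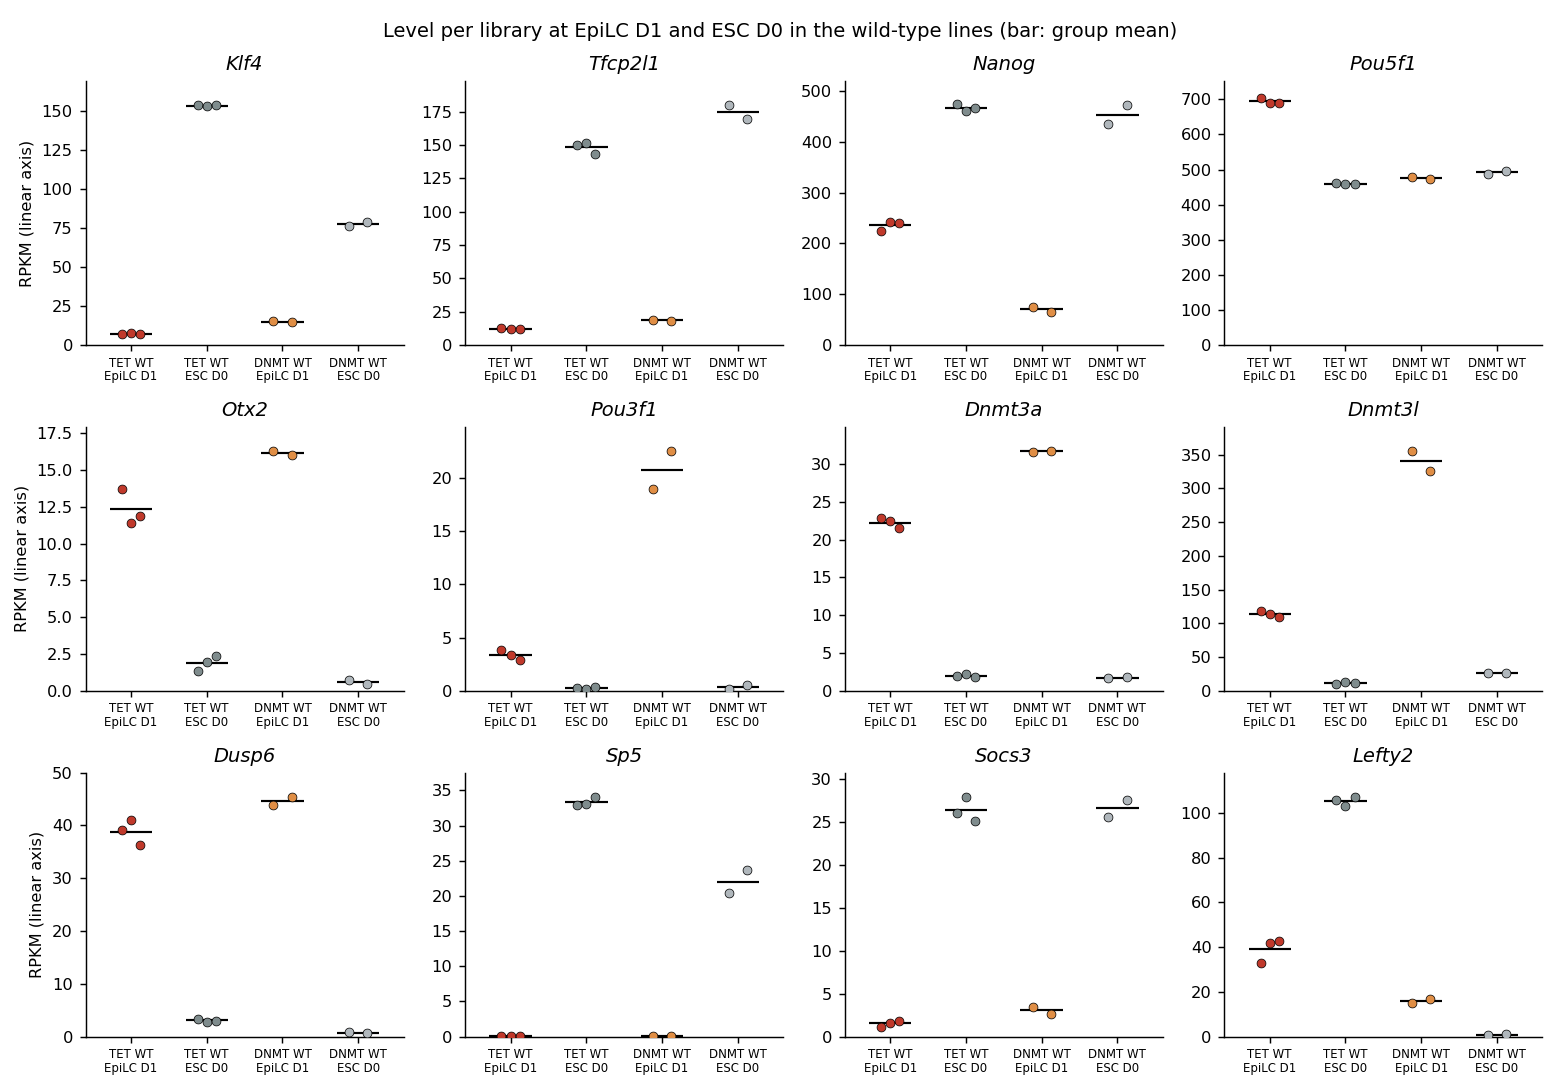
RPKM of 12 genes in each library (points) with the group mean (bar), on linear axes from 0, for TET WT EpiLC D1, TET WT ESC D0, DNMT WT EpiLC D1 and DNMT WT ESC D0. Klf4, Tfcp2l1, Sp5 and Socs3 are lower at EpiLC D1 in both lines, Otx2, Pou3f1, Dnmt3a, Dnmt3l and Dusp6 are higher in both, and Lefty2 is lower in TET WT and higher in DNMT WT.

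Core pluripotency genes kept high levels. Pou5f1 (Oct4) had 704, 689 and 688 RPKM in TET WT EpiLC D1 libraries, against 463, 458 and 458 RPKM in TET WT ESC D0 libraries, and in DNMT WT 478 and 474 RPKM at EpiLC D1, against 487 and 497 RPKM at ESC D0. The conditions did not overlap in either line, with opposite directions, and the joint difference was 0.34 ± 0.11 (adjusted p = 0.0200), under the size of 1. Sox2 was at -0.45 ± 0.07 (adjusted p = 0.000343), also under it. Of 12 general pluripotency genes, 3 rose in both lines (Utf1, Dppa2 and Dppa4), none fell, and the median was 0.54.

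Utf1, a chromatin-bound factor of pluripotent cells, had the largest of these differences (3.49 ± 0.17, adjusted p = 9.59e-08). It had 245, 242 and 224 RPKM in TET WT EpiLC D1 libraries, against 27.3, 26.4 and 29.3 RPKM in TET WT ESC D0 libraries, and in DNMT WT 456 and 376 RPKM at EpiLC D1, against 22.4 and 24.5 RPKM at ESC D0. Dppa2 and Dppa4, SAP-domain partners that guard bivalent promoters from methylation, rose by 2.18 ± 0.12 and 2.00 ± 0.05. Dppa4 stood at 98.2 to 136 RPKM in the EpiLC D1 libraries of both lines, against 22.2 to 35.7 RPKM at ESC D0.

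Of 18 formative genes tested, 10 rose in both lines, none fell, 8 were not called, and the median difference was 1.66. Otx2, a homeodomain factor that redirects Oct4 to new enhancers in EpiLCs, had 13.7, 11.4 and 11.8 RPKM in TET WT EpiLC D1 libraries, against 1.32, 1.98 and 2.36 RPKM in TET WT ESC D0 libraries. In DNMT WT it had 16.3 and 16.0 RPKM at EpiLC D1, against 0.757 and 0.467 RPKM at ESC D0. It rose by 3.03 ± 0.26 (adjusted p = 4.81e-06). Pou3f1 (Oct6), a POU factor of the post-implantation epiblast, reached 3.84, 3.37 and 2.89 RPKM in TET WT EpiLC D1 libraries, against 0.299, 0.181 and 0.318 RPKM in TET WT ESC D0 libraries. It reached 18.9 and 22.5 RPKM in DNMT WT at EpiLC D1, against 0.171 and 0.573 RPKM at ESC D0. Both lines started low, and the DNMT WT change was greater (difference of the changes -2.31, adjusted p = 7.19e-05).

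Tcf15, a bHLH factor that primes ESCs for differentiation, rose alike in TET WT (3.6) and DNMT WT (3.50), with 46.8 to 83.8 RPKM at EpiLC D1 against 3.78 to 6.38 RPKM at ESC D0. Car4, a carbonic anhydrase, was without a read at ESC D0 in all 5 libraries. Against a floor of 3 reads per library it was at least 14.2-fold higher in TET WT and at least 109.6-fold higher in DNMT WT at EpiLC D1. Sox3 (2.36), Sox4 (2.18), Sox11 (1.38), Grhl2 (2.07) and the FGF ligand Fgf15 (2.19) also rose in both lines. Fgf5, the usual EpiLC marker, was below the filter and was not tested. It had 15, 13 and 19 reads in TET WT EpiLC D1 libraries and 22 and 11 reads in DNMT WT EpiLC D1 libraries, or 0.384 to 0.723 RPKM, against no read in any of the 5 ESC D0 libraries. Foxd3 (0.06), Zic2 (0.06) and Lef1 (0.13) did not pass the test over both lines, where opposite changes were averaged. In TET WT they were lower, with Foxd3 at -0.41, Zic2 at -0.43 and Lef1 at -0.79. In DNMT WT they were higher, with Foxd3 at 0.76, Zic2 at 0.80 and Lef1 at 1.5. All were called for the difference between the lines.

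The genes of de novo DNA methylation rose together in both lines. Dnmt3a and Dnmt3b are the enzymes that place new methyl groups, and Dnmt3l is their catalytically inactive cofactor. Dnmt3a (chromosome 12, 3806007 to 3914443, GRCm38) had 22.8, 22.4 and 21.5 RPKM in TET WT EpiLC D1 libraries, against 1.89, 2.16 and 1.76 RPKM in TET WT ESC D0 libraries. It had 31.6 and 31.7 RPKM in DNMT WT at EpiLC D1, against 1.63 and 1.87 RPKM at ESC D0, and rose by 3.47 ± 0.12 (adjusted p = 8.46e-09). Dnmt3l had 119, 114 and 109 RPKM in TET WT EpiLC D1 libraries, against 9.59, 13.3 and 12.3 RPKM in TET WT ESC D0 libraries, and in DNMT WT 355 and 326 RPKM at EpiLC D1, against 25.8 and 26.8 RPKM at ESC D0. The fitted change was 3.41 ± 0.11, on a level that was higher in DNMT WT at both conditions. Dnmt3b rose less (1.62 ± 0.07, adjusted p = 2.12e-08), to 35.2 to 40.9 RPKM in TET WT EpiLC D1 libraries against 12 to 12.8 RPKM in TET WT ESC D0 libraries, and to 86.3 and 86.7 RPKM in DNMT WT EpiLC D1 libraries against 25.4 and 25.7 RPKM in DNMT WT ESC D0 libraries.

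These were the 3 of 15 genes of DNA methylation and demethylation that rose in both lines, none fell in both, and the list's median was 0.17. The maintenance methyltransferase Dnmt1 (-0.33, adjusted p = 0.0815) and the dioxygenases Tet1 (-0.25, adjusted p = 0.151) and Tet3 (-0.21, adjusted p = 0.0913) did not pass the test over both lines. Dnmt1 was at -0.69 in TET WT and 0.22 in DNMT WT, and Tet1 at -0.56 in TET WT and 0.20 in DNMT WT. Neither gene was called for the difference between the lines. Tet2 had an adjusted p of 2.15e-05 at a difference of -0.86, under the size of 1. Of 20 germline genes whose promoters are known to be held by DNA methylation in somatic cells, 5 rose in both lines (Mael, Sycp1, Taf7l, Ddx4 and Slc25a31), none fell, and the median was 0.76. Mael, a piRNA pathway protein, had 3.62, 4.18 and 4.18 RPKM in TET WT EpiLC D1 libraries, against 0.357, 0.630 and 0.0424 RPKM in TET WT ESC D0 libraries, and in DNMT WT 17.4 and 13.6 RPKM at EpiLC D1, against 3.36 and 4.23 RPKM at ESC D0. For Mael the 0.0424 RPKM stands for a library without a read, taken as 0.9 reads. The summed level of the germline list in TET WT was 347 to 357 RPKM at EpiLC D1, against 185 to 195 RPKM at ESC D0. In DNMT WT the summed level was 554 to 571 RPKM at EpiLC D1 and 560 to 572 RPKM at ESC D0, so the libraries overlapped.

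Of 15 genes of the LIF pathway and its targets tested, 6 fell in both lines (Klf4, Socs3, Tfcp2l1, Bcl3, Stat3 and Pramel7), none rose, 7 were not called over both lines, and the median was -1.04. Klf4 and Tfcp2l1 are shared with the naive factors. Socs3, the feedback inhibitor of gp130 signalling, had 1.15, 1.64 and 1.80 RPKM in TET WT EpiLC D1 libraries, against 26, 27.9 and 25.1 RPKM in TET WT ESC D0 libraries. In DNMT WT it had 3.44 and 2.66 RPKM at EpiLC D1, against 25.6 and 27.5 RPKM at ESC D0. It fell by 3.42 on the log2 scale (adjusted p = 6.93e-08). Stat3 itself fell (-2.57), as did Bcl3, a nuclear IκB protein (-2.99). The receptor chain Lifr (-0.25) and the kinase Jak1 (-0.24) were under the size of 1, and Il6st, which encodes gp130, was called over both lines (-1.25) with -0.89 in TET WT and -1.78 in DNMT WT. In the other direction, Cntfr, the receptor subunit for the related cytokine CNTF, had the largest rise of all genes named by the rule. It had 13.2, 12.8 and 12.7 RPKM in TET WT EpiLC D1 libraries, against 0.159, 0.0357 and 0.0293 RPKM in TET WT ESC D0 libraries, and in DNMT WT 24.2 and 16.4 RPKM at EpiLC D1, against 0.101 and 0.198 RPKM at ESC D0. The ESC D0 values rest on 1 to 7 reads a library, and the difference was 4.72 ± 0.13 (adjusted p = 2.83e-09).

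Of 17 feedback genes and targets of ERK tested, 7 rose in both lines (Dusp6, Spry4, Dusp4, Myc, Etv4, Phlda1 and Dusp5), none fell, 9 were not called over both lines, and the median was 0.94. Dusp6, the phosphatase that removes the activating phosphates of ERK, had 39.1, 41.0 and 36.2 RPKM in TET WT EpiLC D1 libraries, against 3.39, 2.82 and 3.00 RPKM in TET WT ESC D0 libraries. In DNMT WT it had 44.0 and 45.4 RPKM at EpiLC D1, against 0.780 and 0.704 RPKM at ESC D0. The EpiLC D1 levels of the lines lay close together and the ESC D0 levels did not, and the difference over both lines was 4.15 ± 0.27 (adjusted p = 7.19e-07). Spry4, a Sprouty inhibitor of receptor tyrosine kinase signalling, behaved likewise, with 24.3, 25.3 and 23.5 RPKM in TET WT EpiLC D1 libraries against 2.33, 2.14 and 2.76 RPKM in TET WT ESC D0 libraries, and 20.3 and 18.3 RPKM in DNMT WT EpiLC D1 libraries against 0.451 and 0.137 RPKM in DNMT WT ESC D0 libraries.

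Myc, a growth-promoting bHLH factor, had 36.3, 34.5 and 32.1 RPKM in TET WT EpiLC D1 libraries, against 11, 10.3 and 10.6 RPKM in TET WT ESC D0 libraries, and in DNMT WT 53.5 and 39.7 RPKM at EpiLC D1, against 2.01 and 2.58 RPKM at ESC D0. It rose in both lines (2.61 ± 0.38, adjusted p = 0.000224), more in DNMT WT. The ETS factor Etv4 rose (2.49), while its relative Etv5 was at -0.34. Egr1, an immediate early gene, was called over both lines (1.26), with 0.04 in TET WT and 3.09 in DNMT WT. Among 9 FGF ligands and receptors tested, Fgf15 and Fgfr4 rose in both lines, Fgf10 fell, and the median was 0.21. Fgf10 had no read in the DNMT WT EpiLC D1 libraries and was there at least 16.1-fold lower than at ESC D0, against 3 reads per library. Fgf4, the ligand that ESCs make for themselves, was at 0.21 (adjusted p = 0.137).

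Among Wnt targets was Sp5, the gene with the largest fitted fall of all those tested. Of 12 Wnt targets tested, 3 fell in both lines (Sp5, Cdx1 and Dkk1), none rose, 7 were not called over both lines, and the median was -0.86. Sp5, a zinc finger factor directly activated by β-catenin (chromosome 2, 70474923 to 70477729, + strand, GRCm38), had no read in any of the 5 EpiLC D1 libraries, against 698 to 876 reads in TET WT ESC D0 libraries and 455 and 631 reads in DNMT WT ESC D0 libraries. Against a floor of 3 reads per library it was at least 255-fold lower at EpiLC D1 in TET WT and at least 182-fold lower in DNMT WT, against ESC D0 levels of 32.9, 33.0 and 34.0 RPKM in TET WT and 20.4 and 23.7 RPKM in DNMT WT. The fitted difference of -5.74 ± 0.11 depends on the pseudocount and is no bound. Cdx1, a caudal homeobox factor, fell to 1.79, 2.50 and 2.92 RPKM in TET WT EpiLC D1 libraries, against 42.4, 51.3 and 48.3 RPKM in TET WT ESC D0 libraries, and to 2.40 and 2.50 RPKM in DNMT WT EpiLC D1 libraries, against 21.2 and 20.4 RPKM in DNMT WT ESC D0 libraries. Dkk1, a secreted Wnt inhibitor, fell by 1.28 on the log2 scale from low levels. Axin2, the scaffold protein used as a Wnt reporter, was called over both lines (-1.76), with -2.31 in TET WT and -0.94 in DNMT WT, and the changes differed between lines (adjusted p = 5.40e-05).

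The promoter windows of 2 genes are shown because Sp5 has the largest fall and because Gadd45a, a DNA damage and stress protein that rose by 3.57 ± 0.11, has the octamer bound by POU factors in 2 places. Both genes were picked after their values were seen. The windows run from 250 bases before to 50 bases after the start site, are written 5′ to 3′ on the gene's strand and come from RefSeq (GRCm38.p6). The Sp5 window is chr2:70474673-70474972 (+) and the Gadd45a window is chr6:67037358-67037657 (-). Capitals mark the TCF/LEF match in Sp5, 104 bases before the start, and the 2 octamer matches in Gadd45a, 97 and 70 bases before the start.
Sp5: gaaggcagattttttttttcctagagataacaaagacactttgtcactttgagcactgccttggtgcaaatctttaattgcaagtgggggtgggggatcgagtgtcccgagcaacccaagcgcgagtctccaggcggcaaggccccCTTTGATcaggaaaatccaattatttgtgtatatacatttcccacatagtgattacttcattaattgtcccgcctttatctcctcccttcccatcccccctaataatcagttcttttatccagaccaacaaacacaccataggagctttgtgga
Gadd45a: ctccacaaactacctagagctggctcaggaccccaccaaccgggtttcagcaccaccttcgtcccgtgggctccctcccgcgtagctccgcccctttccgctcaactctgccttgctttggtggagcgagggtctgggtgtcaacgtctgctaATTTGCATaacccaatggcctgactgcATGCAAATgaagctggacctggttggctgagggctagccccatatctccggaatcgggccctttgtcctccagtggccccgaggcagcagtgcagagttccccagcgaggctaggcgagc
Motifs were searched on both strands as exact letters. A gene was counted if any of its windows held a match, so shares of genes and of windows are unlike measures. CTTTGAT, the TCF/LEF core, was in 3.73% of all 32851 windows and in 2.92% of the 9134 tested genes with a window. It was in 14 of 408 genes that fell in both lines (3.43%) and in 6 of 299 genes that rose (2.01%). ATGCAAAT, the octamer, was in 1.74% of all windows and in 1.68% of tested genes. It was in 11 of 299 genes that rose (3.68%) and in 7 of 408 genes that fell (1.72%). The ETS motif CCGGAAGT was in 3.89% of all windows and in 9.75% of tested genes. It was in 9 of 299 genes that rose (3.01%) and in 6 of 408 that fell (1.47%). The STAT motif TTCCNGGAA was in 1.15% of all windows and in 1.58% of tested genes. It was in 2 of 299 genes that rose (0.669%) and in 8 of 408 that fell (1.96%). A match is a description of these letters and not a binding site.

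Gadd45a had 52.5, 52.0 and 53.2 RPKM in TET WT EpiLC D1 libraries, against 4.97, 4.62 and 4.58 RPKM in TET WT ESC D0 libraries, and in DNMT WT 37.9 and 38.7 RPKM at EpiLC D1, against 1.81 and 2.37 RPKM at ESC D0. It was 1 of 2 genes that rose in both lines among 13 metallothionein and stress genes, with the haem oxygenase Hmox1 (1.69), while the asparagine synthetase Asns fell (-1.14) and the median was -0.22.

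The Nodal and BMP pathways moved in parts. Of 17 Nodal pathway genes, 3 rose in both lines, Gdf1 and Skil among them, and 3 fell (Pcsk6, Furin and Acvr1b), with a median of 0.34. Gdf1 is a Nodal partner ligand (1.91), Skil a SMAD co-repressor (1.77), Pcsk6 (-1.59) and Furin (-1.38) the proteases that mature Nodal, and Acvr1b a type I receptor (-1.35). Nodal itself was at 0.34 (adjusted p = 0.00108), under the size of 1. Of 14 BMP pathway genes, none met the rule as higher in both lines, 2 fell (Tfap2c and Id4), and the median was -0.07. Called over both lines with 1 line under the size of 1 were Id1, Bmp4 and Bmp7. Id1 (1.69) was at 2.17 in TET WT and 0.98 in DNMT WT, and Bmp4 (1.11) at 0.84 in TET WT and 1.51 in DNMT WT. Bmp7 (-1.72) was at -2.20 in TET WT and -0.99 in DNMT WT. Tfap2c, an AP-2 factor with roles in naive pluripotency, trophoblast and germ cells, had 0.201, 0.121 and 0.227 RPKM in TET WT EpiLC D1 libraries, against 6.06, 7.18 and 6.81 RPKM in TET WT ESC D0 libraries, and in DNMT WT 1.34 and 0.713 RPKM at EpiLC D1, against 14.8 and 16.0 RPKM at ESC D0. Its fall of 3.40 ± 0.12 was nearly the same in TET WT (-3.39) and in DNMT WT (-3.41).

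The Nodal targets Lefty1 and Lefty2, secreted inhibitors of Nodal, moved differently in the 2 lines. Lefty2 had 33.0, 41.7 and 43.0 RPKM in TET WT EpiLC D1 libraries, against 106, 103 and 107 RPKM in TET WT ESC D0 libraries. In DNMT WT it had 15.0 and 16.7 RPKM at EpiLC D1, against 0.756 and 1.06 RPKM at ESC D0. Lefty2 was thus lower at EpiLC D1 in TET WT (-1.42) and higher in DNMT WT (3.55), and the changes differed by -4.97 (adjusted p = 6.54e-08). Lefty1 had 16.0, 17.6 and 21.1 RPKM in TET WT EpiLC D1 libraries, against 14.6, 15.5 and 15.8 RPKM in TET WT ESC D0 libraries, and in DNMT WT 20.1 and 27.2 RPKM at EpiLC D1, against 0.374 and 0.314 RPKM at ESC D0. Its difference was 0.24 in TET WT and 4.82 in DNMT WT. The joint call (2.07, adjusted p = 0.0288) is lost without any one of the 4 DNMT WT libraries, with log2 differences of 1.58 to 1.71 and adjusted p-values of 0.0683 to 0.0740.

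Of 13 primitive streak and early mesoderm genes, 10 were below the filter, 1 of the 3 tested (Gsc) fell in both lines and none rose. The summed level of that list was 3.43 to 4.05 RPKM in TET WT EpiLC D1 libraries, against 13.5 to 15.7 RPKM in TET WT ESC D0 libraries, and in DNMT WT 3.86 to 4.77 RPKM at EpiLC D1, against 12.9 to 15.3 RPKM at ESC D0. Gsc, the homeobox factor goosecoid, had no read in TET WT EpiLC D1 libraries and was there at least 17.7-fold lower than at ESC D0, against 3 reads per library. T (brachyury) was at 0.0399, 0.0347 and 0.120 RPKM in TET WT EpiLC D1 libraries, against 3.36, 3.26 and 3.53 RPKM in TET WT ESC D0 libraries, and in DNMT WT at 0.462 and 0.528 RPKM at EpiLC D1, against 0.731 and 0.919 RPKM at ESC D0. It was called over both lines without agreeing, at -2.78 in TET WT and -0.41 in DNMT WT. Its 0.0347 RPKM stands for a library without a read, taken as 0.9 reads.

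Of 19 endoderm genes, 12 were below the filter, among them Gata4, Gata6, Sox17 and Foxa2. Of the 7 tested, the endocytic receptor Lrp2 rose (2.00), the laminin chain Lama1 fell (-2.76) and the median was 0.00. The endoderm sum was 98.8 to 102 RPKM in TET WT EpiLC D1 libraries, against 116 to 125 RPKM in TET WT ESC D0 libraries, and 145 to 150 RPKM in DNMT WT EpiLC D1 libraries, against 121 to 123 RPKM in DNMT WT ESC D0 libraries. Of 12 trophoblast genes, 7 were tested, with P-cadherin (Cdh3) higher (1.90), Tfap2a lower (-1.94) and a median of -0.17, and Tpbpa had no read in any of the 10 libraries. The trophoblast sum was 14.2 to 14.7 RPKM in TET WT EpiLC D1 libraries, against 23.8 to 25.1 RPKM in TET WT ESC D0 libraries, and 36.5 to 41.1 RPKM in DNMT WT EpiLC D1 libraries, against 21.2 to 21.3 RPKM in DNMT WT ESC D0 libraries. Both sums thus moved in opposite directions in the lines.

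Of 13 neuroectoderm genes, 8 were below the filter, including Pax6 and Pax3. Of the 5 tested none met the rule as higher in both lines, 1 fell (Ncam1, a neural adhesion molecule, -2.46), and the median was -0.89. Sox1 was called higher over both lines (1.23), with 1.46 in TET WT and 0.89 in DNMT WT. Nes was called lower (-1.35), with -1.63 in TET WT and -0.91 in DNMT WT. The neuroectoderm sum was 37.5 to 39.3 RPKM in TET WT EpiLC D1 libraries, against 67.9 to 72.1 RPKM in TET WT ESC D0 libraries, and 44.4 to 47.8 RPKM in DNMT WT EpiLC D1 libraries, against 108 to 120 RPKM in DNMT WT ESC D0 libraries. Of 14 fibroblast genes, which would mark feeder cells, 10 were below the filter, including Col1a1, Col1a2, Col3a1 and Dcn, and of the 4 tested none agreed between lines (median -0.91). The fibroblast sum was 25.4 to 29.7 RPKM in TET WT EpiLC D1 libraries, against 91.1 to 109 RPKM in TET WT ESC D0 libraries, and 87.7 to 99.8 RPKM in DNMT WT EpiLC D1 libraries, against 157 to 172 RPKM in DNMT WT ESC D0 libraries. This sum moved with the condition in both lines, with fibronectin (Fn1) called over both lines (-1.46), and its part in the results was not tested.

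Of 6 tested genes of the 2-cell-like state that some ESCs enter, 3 rose in both lines (Zscan4d, Zscan4c and Tcstv3), none fell, and the median was 0.91. Zscan4d, a SCAN-domain zinc finger gene, had 2.15, 2.16 and 1.72 RPKM in TET WT EpiLC D1 libraries, against 0.0389, 0.131 and 0.108 RPKM in TET WT ESC D0 libraries, and in DNMT WT 8.28 and 6.0 RPKM at EpiLC D1, against 1.49 and 1.49 RPKM at ESC D0. Zscan4 and Tcstv genes have near-identical copies, so values of single members are uncertain. The Tcstv3 call (1.11) is lost without the unnumbered DNMT WT EpiLC D1 library, where its log2 difference is 0.95, and with the replicate number as a block, where it is 0.99.

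In glycolysis, 3 of 22 genes rose in both lines and 1 fell, with a median of -0.08. The lactate exporter Slc16a3 (2.92), the muscle enolase Eno3 (2.76) and Pdk1 (2.45), the kinase that shuts off pyruvate dehydrogenase, were higher, and hexokinase Hk1 (-2.0) was lower. Pdk1 had 35.7, 36.9 and 36.8 RPKM in TET WT EpiLC D1 libraries, against 12.4, 12 and 12.9 RPKM in TET WT ESC D0 libraries, and in DNMT WT 14.2 and 15.2 RPKM at EpiLC D1, against 0.544 and 0.557 RPKM at ESC D0. None of 12 mitochondrially encoded genes was called over both lines (median -0.35, with -0.85 in TET WT and 0.27 in DNMT WT), and the change of 5 of them differed between lines. None of 22 cholesterol synthesis genes was called by limma (median 0.24). An unadjusted p under 0.05 was reached by 3 of the mitochondrial and 16 of the cholesterol genes, at sizes under 1, and voom on recovered reads called 0 of either list.

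Of 15 cadherins and factors of the epithelial-mesenchymal switch, 3 rose in both lines (Cldn6, Epcam and Cdh3), none met the rule as lower, and the median was 0.29. Snai1 was called lower over both lines (-1.36), with -1.63 in TET WT and -0.94 in DNMT WT. Esrp1 was called higher (1.69), with 0.69 in TET WT and 3.19 in DNMT WT. Epcam, an epithelial adhesion molecule, had 94.1, 100 and 96.5 RPKM in TET WT EpiLC D1 libraries, against 28.6, 27.8 and 31.0 RPKM in TET WT ESC D0 libraries, and in DNMT WT 60.0 and 60.3 RPKM at EpiLC D1, against 9.89 and 11.5 RPKM at ESC D0. Among 15 G1 cyclins and cyclin-dependent kinase inhibitors, Ccne1 (1.75) and Cdkn1c (2.67) rose, Cdkn1a (-2.74) fell, and the median was 0.17. Cdkn1a (p21) had 5.67, 4.88 and 5.22 RPKM in TET WT EpiLC D1 libraries, against 38.2, 41.2 and 43.0 RPKM in TET WT ESC D0 libraries, and in DNMT WT 6.43 and 5.29 RPKM at EpiLC D1, against 36.9 and 37.7 RPKM at ESC D0. Of 16 p53 targets, which share Cdkn1a with the previous list, the BH3-only gene Pmaip1 rose (1.92), Cdkn1a fell and the median was 0.08. Of 14 housekeeping genes, none rose in both lines, 1 fell (B2m, the light chain of MHC class I, -1.96), and the median was 0.10.

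**Figure D3:**
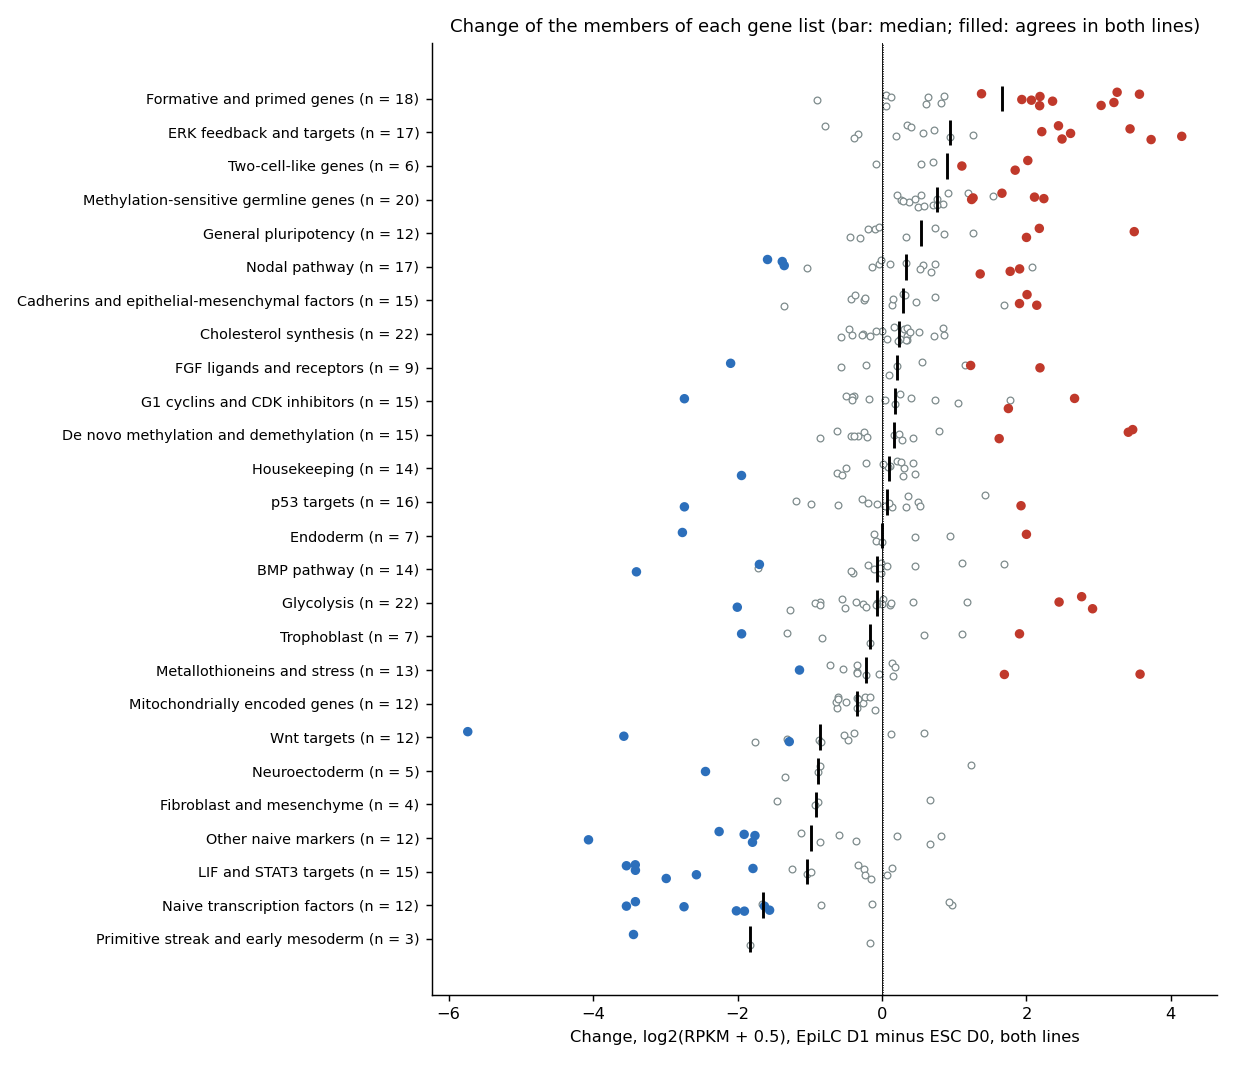
Difference between EpiLC D1 and ESC D0 over both lines, on the log2(RPKM + 0.5) scale, for the tested members of each gene list (points) with the list median (bar). Filled points agree in both lines, red higher and blue lower, and open points do not agree, so that formative genes (10 of 18 filled red) lie at the top and naive and LIF genes near the bottom.

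Other large rises shared by both lines were in genes outside these lists. Prss50, a testis protease, rose by 4.52 ± 0.25, with 8.37, 9.33 and 6.5 RPKM in TET WT EpiLC D1 libraries against 0.0608, 0.0614 and 0.0561 RPKM in TET WT ESC D0 libraries, and 32.1 and 25.6 RPKM in DNMT WT EpiLC D1 libraries against 0.194 and 0.162 RPKM in DNMT WT ESC D0 libraries. The 0.0614 RPKM of Prss50 stands for a library without a read, taken as 0.9 reads, and the other TET WT ESC D0 values lie near that floor. Enpp3, an ectonucleotide pyrophosphatase (4.41), Myrf, a membrane-bound transcription factor known from oligodendrocytes (4.20), Steap1, a metalloreductase family member (4.13), Slc7a7, an amino acid transporter subunit (3.96), and Eras, a Ras protein of ESCs (3.82), rose as well. Eras had 37.0, 39.1 and 35.5 RPKM in TET WT EpiLC D1 libraries, against 1.81, 2.58 and 1.44 RPKM in TET WT ESC D0 libraries, and in DNMT WT 32.9 and 31.3 RPKM at EpiLC D1, against 1.48 and 3.15 RPKM at ESC D0. The noncoding RNAs Halr1 (4.39) and Platr5 (3.72) were also among the largest rises.

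Among the largest falls besides those above were Nkx1-2 (-4.43) and Foxd1 (-4.04), a homeobox and a forkhead factor, and Spic (-4.38), an ETS factor. The melanocyte factor Mitf (-3.72), the protease inhibitor Serpinb1a (-3.85), the small heat shock protein Hspb8 (-3.69) and Ly6g6e (-3.65) also fell. Spic had 0.120, 0.0698 and 0.0725 RPKM in TET WT EpiLC D1 libraries, against 8.57, 9.13 and 9.07 RPKM in TET WT ESC D0 libraries, and in DNMT WT 0.107 and 0.0205 RPKM at EpiLC D1, against 16.7 and 17.1 RPKM at ESC D0. Its libraries were separated by condition in both lines, and the 0.0205 RPKM stands for a library without a read, taken as 0.9 reads.

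The calls within each line overlapped in part. In the fit of 4 groups, which share one estimate of the spread, the contrast within TET WT had 1910 calls (15.7%), 804 higher (6.62%) and 1106 lower (9.11%), and that within DNMT WT had 1759 (14.5%), 899 higher (7.4%) and 860 lower (7.08%). Of these, 973 were called in the same direction in each line, which is 50.9% of the TET WT calls and 55.3% of the DNMT WT calls, and 14 were called in opposite directions. The change itself differed between the lines, as an interaction in limma, for 1326 genes (10.9%), 503 (4.14%) with a more positive and 823 (6.78%) with a more negative change in TET WT than in DNMT WT. Among the 973 agreeing genes 161 had such a difference. Of 923 genes called in TET WT alone, 355 had a tested difference between lines, as did 364 of the 772 called in DNMT WT alone, so for the rest a call in 1 line and none in the other does not show that the lines differ.

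Line differences were ranked among genes with at least 5 RPKM on average in the higher condition of each line, without clones and predicted genes. Among these genes, besides Lefty1 and Lefty2, the largest differences with a more positive change in DNMT WT were Peg10, a retrotransposon-derived imprinted gene, and Slc16a3. Peg10 had 50.6, 48.2 and 47.0 RPKM in TET WT EpiLC D1 libraries, against 22.7, 23.0 and 20.9 RPKM in TET WT ESC D0 libraries, and in DNMT WT 57.9 and 56.5 RPKM at EpiLC D1, against 1.37 and 1.15 RPKM at ESC D0. Slc16a3 had 17.4 to 19.8 RPKM in TET WT EpiLC D1 libraries, against 4.86 to 6.02 RPKM in TET WT ESC D0 libraries, and in DNMT WT 20.4 and 23.8 RPKM at EpiLC D1, against 0.389 and 0.252 RPKM at ESC D0. In both genes the EpiLC D1 levels of the lines were close and the DNMT WT ESC D0 libraries were the low ones. The calcium-binding protein gene S100a6 (difference of the changes 2.65), the myosin Myo1f (2.63), Aard (2.37) and the acylphosphatase Acyp2 (2.28) had the largest differences in the other direction. S100a6 had 76.4, 65.3 and 55.7 RPKM in TET WT EpiLC D1 libraries, against 1.36, 0.944 and 1.31 RPKM in TET WT ESC D0 libraries, and in DNMT WT 21.6 and 19.2 RPKM at EpiLC D1, against 2.48 and 3.34 RPKM at ESC D0.

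The knockout lines gave a measurement of the same day in libraries that the choice of genes had not used. They derive from the wild-type lines used for that choice, so the libraries are separate and the origin of the lines is not. TET KO and DNMT KO, with 3 libraries at each condition, were fitted together over 12605 genes, of which 949 were among the 973. In TET KO, 3280 genes were called (26.0%), 1142 higher (9.06%) and 2138 lower (17.0%), and in DNMT KO 1670 were called (13.2%), 906 higher (7.19%) and 764 lower (6.06%). In TET KO 289 of the 415 genes that rose in both wild-type lines were called higher and 458 of the 534 that fell were called lower. In DNMT KO 345 of 415 were called higher and 435 of 534 lower. None of the 949 was called in the opposite direction in either knockout, 931 had the same sign in TET KO and 949 in DNMT KO, and 611 were called in the same direction in all 4 lines. The shares of all genes with the same sign, or called in all 4 lines, were not counted.

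Dusp6 changed by 4.92 in TET KO and 4.85 in DNMT KO, and Otx2 by 4.47 in TET KO and 3.49 in DNMT KO. Klf4 was at -5.79 in TET KO and -2.44 in DNMT KO, and Sp5 at -4.92 in TET KO and -5.37 in DNMT KO. Prss50 was at 2.38 in TET KO and 4.71 in DNMT KO, and Foxd1, which fell by 4.04 in the wild-type lines, at -1.16 in TET KO and -1.56 in DNMT KO. Whether these changes differ between a knockout and its parent was not tested here.

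**Figure D4:**
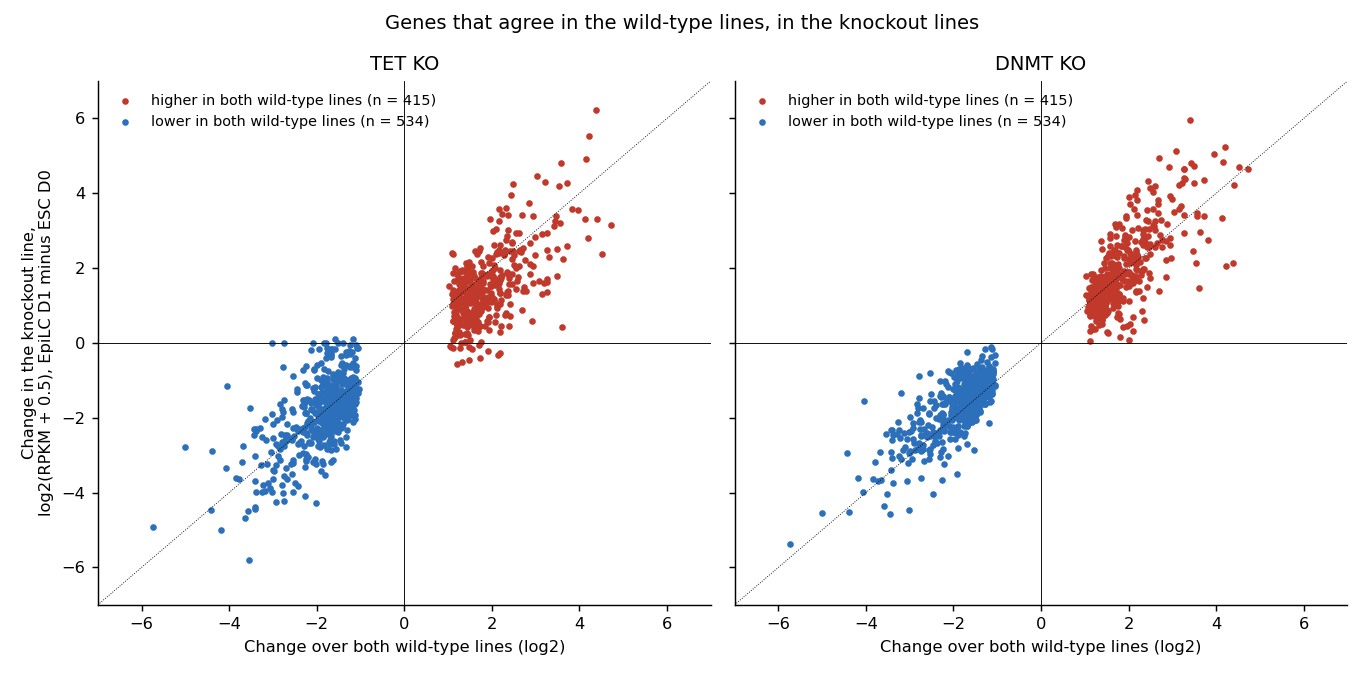
Difference between EpiLC D1 and ESC D0 in TET KO (left) and DNMT KO (right), on the log2(RPKM + 0.5) scale, against the difference over both wild-type lines, for the 949 agreeing genes measured in the knockout fit. The 415 genes higher in the wild-type lines (red) lie mostly above 0 and the 534 lower ones (blue) mostly below, with 931 of the same sign in TET KO and 949 in DNMT KO.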

How the data were processed

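RNA was measured in 79 libraries, 10 of which are used in the main comparison and 12 knockout libraries in the last. Per the labels' protocols, column-purified RNA was DNase-treated, and stranded libraries followed an oligo-dT pulldown. The submitters' processing notes name Trim Galore 0.6.1 and cutadapt 1.18 for trimming, HISAT2 2.1.0 for alignment, and GRCm38. How genes were counted is not given in the sources used here. What the authors deposited is a single table of log2 RPKM per gene and library, with symbols, Ensembl identifiers and coordinates.

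Of its 35269 entries, 39 repeated an identifier and were left out, leaving 35230 genes. Reads were recovered from the steps of low RPKM values with GENCODE M21 merged-exon lengths, a gene without a read being taken as 0.9 reads, for 99.1% of genes, and 96.8% of values of 1 to 20 reads were whole within 0.1 reads. Depth was 10.1 to 12.7 M reads over the 10 libraries. Over the 8 pairs of replicates the chi-square per gene of recovered reads came to 2.16 to 10.3, above the value of about 1 that sampling noise alone gives, and all were treated as separate libraries. A column of DNMT WT EpiLC D1 matched its group but no sample title, and it served as an unnumbered replicate.

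A gene was tested if 2 or more of the 10 libraries reached 1 RPKM (12142 genes). The fit used limma 3.58.1 under R 4.3.3 on log2(RPKM + 0.5) (eBayes with trend and robust settings), with line as covariate, and again with 4 groups for each line's own change and for their difference. The knockout lines were fitted separately over 12605 genes. Calls needed a Benjamini-Hochberg adjusted p under 0.05 and a log2 difference of at least 1. Tested on simulated data over 12142 genes, the fit called 100 of 100 genes changed by 1.5 and 100 of 100 changed by 3, and 0 unchanged ones. No other size of change was tried, so these counts do not give the power near the threshold of 1. They were not split by expression level or by difference between the lines. Power for low genes, or for genes whose change differs between the lines, is therefore not shown. A floor of 3 reads per library was used for genes without a read in a condition, and bounds cover counting error only. Replicate numbers are shared between conditions, but nothing in the labels ties a number to a culture or day.

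Named genes were the 12 largest rises and 12 largest falls among agreeing genes whose libraries did not overlap in either line, with at least 5 RPKM on average in the higher condition of each line, leaving out clones and predicted genes; up to 4 agreeing members with the largest change in each of 26 gene lists; a set of pluripotency and signalling genes; and the 4 largest line differences in each direction. The line differences were taken from genes called for the difference, under the same filters on level and name. Members named beyond these rules were chosen after their values were seen. A few genes that the rule or the lists hold are not reported here. The comparison, the gene lists and the named genes were chosen with earlier results of these data known. Alternatives were other pseudocounts, filters and scalings, each replicate left out, a replicate block, voom on recovered reads, a fit with all 4 genotypes and other rules of agreement.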

Additional observations from a re-analysis of the deposited data

Results flagged for a closer look

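The genes named by the rule whose change at EpiLC D1 differed between the lines are given here, each with the change in TET WT minus the change in DNMT WT on the log2(RPKM + 0.5) scale. All passed limma's test of the difference at a size of at least 1, with adjusted p-values of 7.58e-09 (Peg10) to 0.00937 (Id4). With 2 or 3 libraries a group, single libraries were not tested for standing apart.

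The change was more positive in TET WT than in DNMT WT for S100a6 (2.65), Myo1f (2.63), Aard (2.37), Acyp2 (2.28), Halr1 (1.84), Nanog (1.69), Jam2 (1.34), Gsc (1.28) and Zfp42 (1.07).

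The change was more negative in TET WT than in DNMT WT for Lefty2 (-4.97), Lefty1 (-4.59), Peg10 (-3.93), Slc16a3 (-3.11), Car4 (-2.58), Dusp4 (-2.46), Myc (-2.43), T (-2.37), Pdk1 (-2.34), Pou3f1 (-2.31), Lef1 (-2.28), Slc7a7 (-2.26) and Klf4 (-2.0). It was so by smaller amounts for Cldn6 (-1.80), Dusp6 (-1.72), Spry4 (-1.57), Lrp2 (-1.52), Prss50 (-1.5), Otx2 (-1.47), Hmox1 (-1.41), Axin2 (-1.37), Myrf (-1.35), Platr5 (-1.31), Nkx1-2 (-1.28), Tbx3 (-1.25), Cdx1 (-1.20), Foxd3 (-1.16), Pmaip1 (-1.14), Id4 (-1.12), Fgf10 (-1.12), Hspb8 (-1.06), Utf1 (-1.04) and Tfap2a (-1.04).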

How the results depend on the processing

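Under the alternatives tried, 1999 of the values of named genes kept their direction and their side of the threshold, 12 kept only their direction and 18 turned. All that turned were in genes not called in the main fit. With voom, Lefty2 met the rule for a call in the other direction. Requiring at least 5 RPKM in at least 2 libraries, which tests fewer genes, gave 402 called higher and 536 lower, 262 agreeing higher and 351 lower, and 283 more positive and 499 more negative changes in TET WT than in DNMT WT. The counts moved with the pseudocount. At 0.1 RPKM, 987 were called higher and 1100 lower, and 640 agreed higher and 712 lower. At 1 RPKM, 508 were called higher and 668 lower, and 294 agreed higher and 406 lower. Voom on recovered reads gave 682 agreeing higher and 766 lower, and the cause was not tested. Asking only for the same sign in each line gave 721 agreeing higher and 858 lower. Of the 973 agreeing genes, 700 were kept at a pseudocount of 1 RPKM, 927 with each library centred on its median, 928 after quantile normalization and 913 to 960 without any one library, and none turned. The share of higher among called genes was 45.7%, against 51.4% when centred and 47.3% after quantile normalization.

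Leaving out each library in turn gave 704 to 739 called higher and 849 to 916 lower, 414 to 434 agreeing higher and 531 to 565 lower, and 476 to 627 more positive and 723 to 956 more negative changes in TET WT. With the replicate number as a block, over 8 libraries, 713 were called higher and 924 lower, against 721 and 927 on the same libraries without it, and 419 agreed higher and 563 lower. Same-numbered libraries did not deviate together (correlations of 0.03, -0.01 and -0.01 in TET WT), so the numbers were not taken to pair them.

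Of the genes that turned, Zfp42 ranged from -0.21 to 0.042 over the libraries left out, positive without the unnumbered DNMT WT EpiLC D1 library, and was at 0.092 with the block. Foxd3 ranged from -0.077 to 0.14, below 0 without any one DNMT WT library, and was at -0.084 with the block. Lef1 ranged from -0.17 to 0.31, below 0 when any one of 3 DNMT WT libraries was left out, and was at -0.30 with the block and -0.14 with voom. Acyp2 ranged from -0.071 to 0.53, below 0 when any one of 4 TET WT libraries was left out. Lefty2 was at -0.12 with the block and -1.25 with voom (adjusted p = 0.00785). Lefty1 lost its call without any one DNMT WT library, without a filter, with the block and with voom. Dkk1 (-0.85), Fgfr4 (0.81) and Tcstv3 (0.73) fell under the size of 1 at a pseudocount of 1 RPKM, and Tcstv3 also with the block (0.99). Depth limits genes under about 1 RPKM, for which few reads were recovered.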
